A study of Mus musculus with 12 samples.

Results

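Axon guidance molecules were followed through sorted mouse mammary epithelial cells in which an activated Hedgehog transducer was switched on. The set holds the semaphorins of classes 3 to 7, plexins, neuropilins, Slits, Robos, netrins and netrin-G proteins, Unc5 receptors, Dcc and Neo1. Members were chosen by gene symbol alone, which gave 50 entries of the 20114 entries of the count table that name 1 locus. RNA of 12 libraries was sequenced, in 3 groups of 4, all from adult females aged 9 weeks on a mixture of 129X1/SvJ, C57BL/6 and Swiss Webster. Every group carried the mT-mG reporter and the SmoM2 allele, an activated form of Smoothened. Recombined cells (genotype mT-mG/SmoM2;MMTV-Cre) were sorted as green and SmoM2 positive, and unrecombined cells came from the same genotype, stayed red and were SmoM2 negative. Wild type cells (mT-mG/SmoM2;+) were red and had no Cre. SmoM2, Cre activity and reporter color therefore change together between recombined and either other group, and no green group lacks SmoM2. Cre is driven by the MMTV promoter, so green cells are those in which, or in whose parent cells, this promoter had been active. The labels do not say which animals gave which library, and p values measure the spread between these libraries, which may be technical.

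These families were named for steering growing axons and also act in epithelia and vessels. Semaphorins signal through plexins, and most secreted class 3 semaphorins need a neuropilin as the binding partner of the plexin. Slits are secreted ligands of Robo receptors, and netrins bind Dcc and its relative neogenin (Neo1) on one side and the repulsive Unc5 receptors on the other. In the mammary gland, netrin and neogenin are known for holding the cap cell layer of the growing end bud together, and Slits with Robo receptors for restraining basal cells and branching.

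Recombined cells held more RNA of several semaphorins, of neuropilin 2 and of the netrin receptor Dcc, and less of neuropilin 1, than either other group. Slit3 and Neo1 were higher against wild type cells and did not pass against unrecombined cells. Of 50 members, 45 had enough counts to be tested. In 13 of the 50 the entry carries further names, mostly names of cDNAs, whose reads are then in the count. Against wild type, 11 of 45 were higher and 1 was lower, or 24.4% and 2.22%. Of all 14039 loci tested 6.55% passed, 4.17% higher and 2.38% lower. Those higher were Sema3b, Sema3c, Sema5a, Sema6a, Sema6d, Plxna1, Nrp2, Slit3, Ntng2, Dcc and Neo1, and the one lower was Nrp1. The median log2 difference was 0.40 over the 45 members and -0.02 over all loci. In 12 members the lowest recombined library exceeded the highest wild type one, and in 2 the order was the opposite, against 6.33% and 5.91% of all loci. The call threshold was an adjusted p of 0.05 in edgeR, over all loci.

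Against unrecombined cells, 9 of 45 members were higher and 2 lower. Of all loci 5.22% passed, 3.08% higher and 2.14% lower. Those higher were Sema3c, Sema5a, Sema6a, Sema6d, Plxna1, Plxnb1, Nrp2, Ntng2 and Dcc, and those lower were Nrp1 and Slit2. The median member difference was 0.37 on the log2 scale, and -0.01 over all loci. In 8 members all 4 recombined libraries lay above all 4 unrecombined ones and in 5 below, against 5.57% and 5.71% of all loci. Both comparisons use the same 4 recombined libraries, so the members they share are not independent evidence. Between the 2 red groups, unrecombined and wild type, edgeR called 0 of 45 members, beside 0% of all loci. Of the 45, 6 had an unadjusted p under 0.05 (13.3%), as did 541 of all 14039 loci (3.85%). DESeq2 called 1 member, weighted limma-voom 1 and unweighted limma-voom 0, and the member was Slit2, which was higher. Over all loci these called 76, 74 and 25. In 5 members (Sema3a, Sema5a, Nrp2, Slit2 and Slit3) all 4 unrecombined libraries lay above all 4 wild type ones, and in 0 below, against 2.86% and 1.55% of all loci.

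**Figure D1:**
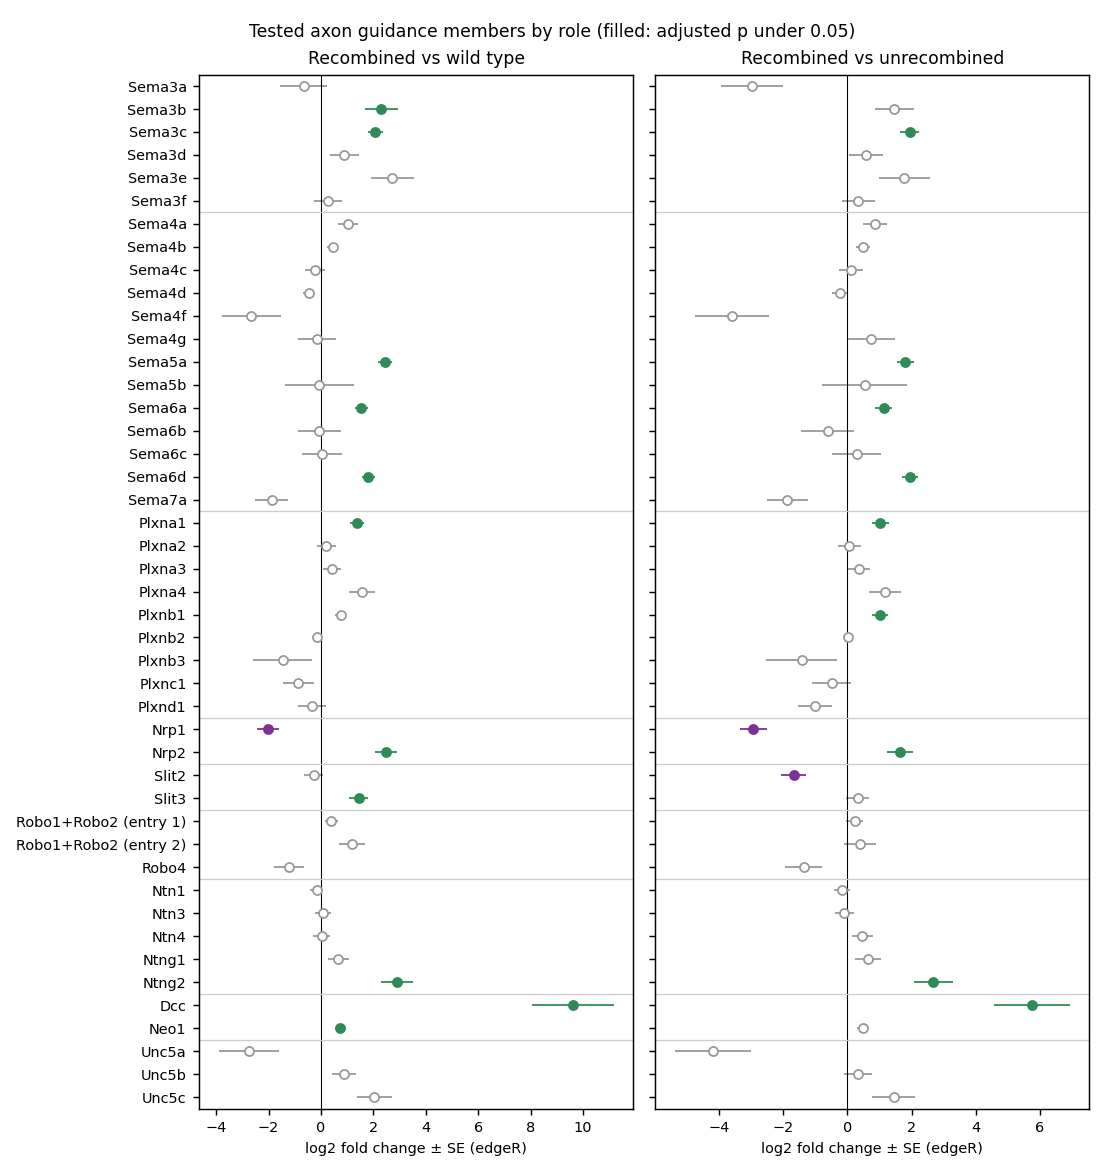
Log2 fold change with its standard error (x axis) of the 45 tested members, ordered by role, for recombined against wild type (left) and against unrecombined cells (right). Filled points passed an adjusted p of 0.05, green for higher and purple for lower. Nrp1 and Slit2 carry the only filled points left of 0. The value of Dcc has no count in wild type behind it and its size depends on the model.

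Recombined libraries 3 and 4 lay apart from the other 10 on the first principal component of all loci, which held 31.4% of the variance. They had counts in fewer loci (14256 and 14601, against 15289 to 16814 elsewhere). Their library numbers in the labels begin with 24, as do those of unrecombined 3 and 4 and wild type 4. The remaining numbers begin with 23. Libraries were grouped here by these digits as series 23 and 24, and the labels do not say what a series is. Without recombined 3 and 4 the members called were 5 higher and 0 lower against wild type, and 3 higher and 1 lower against unrecombined cells. Over all loci the calls went from 920 to 248 and from 733 to 282 in the same fit. All 12 and 11 called members kept their sign there, and the change was smaller in 12 of 12 and 10 of 11. They also kept their sign within each series, with smaller changes in 12 of 12 and 9 of 11 within series 23 and in 1 of 12 and 2 of 11 within series 24. Within series 23, 75 loci were called against wild type and 106 against unrecombined cells, and within series 24, 17 and 115. Within series 23 (2 recombined, 2 unrecombined and 3 wild type libraries) Sema5a passed against wild type (log2 2.11, adjusted p = 0.0351) and Nrp1 against unrecombined cells (-3.03, 0.0158). Within series 24, with 1 wild type library, no member passed against wild type. Against unrecombined cells Sema3c, Sema6d and Sema5a passed there (adjusted p 0.0396, 0.0396 and 0.0498). Total counts per library lay between 19581993 and 34779433.

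Cell type markers moved with the same groups. Luminal epithelial markers were present in every library, with sums of 4058 to 7187 CPM in wild type, 3321 to 8036 for unrecombined and 2304 to 4474 for recombined cells. Of 12 basal markers 10 rose in recombined against wild type cells, and their summed level was 2252 to 8314 CPM in recombined and 1176 to 1442 in wild type libraries. Of 10 fibroblast markers 9 fell, with 209.6 to 577 CPM in recombined, 1415 to 3413 in wild type and 5180 to 7328 in unrecombined libraries. Of 9 hormone-sensing luminal markers 6 fell. None of 10 tested endothelial markers passed against wild type, with sums of 66.9 to 132 CPM in recombined, 111 to 179.8 in wild type and 138 to 239 in unrecombined libraries. Against unrecombined cells all 12 basal markers rose, all 10 fibroblast markers fell, 3 hormone-sensing markers fell, and Kdr (endothelial) and Cdh19 (Schwann cells) fell. Of the pericyte markers Cspg4 rose and Pdgfrb fell there. Of 8 macrophage and dendritic markers 4 fell against wild type, of 6 pericyte markers 2 rose and 1 fell, and no luminal, luminal progenitor, lymphatic, Schwann, adipocyte or salivary marker passed in that comparison. T and B cell markers summed to at most 1.62 CPM, with Cd3g at 0 in 11 of the 12 libraries. Salivary gland transcripts ranged from 44.2 to 50389 CPM and were above 100 in library 1 and 2 of the recombined and unrecombined groups and in wild type 2. In the 7 other libraries 12 members were higher and 1 lower against wild type, and 7 higher and 2 lower against unrecombined cells. These 7 keep recombined 3 and 4, which lay apart, and leave out recombined 1 and 2. Among recombined and unrecombined libraries they are those of series 24. Salivary level and series cannot be told apart there. Over all loci that fit called 997 and 568, against 920 and 733 with all 12 libraries. The part of these cell types in the member differences was not tested, and fewer cells of a type cannot be told apart from less RNA per cell.

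**Figure D2:**
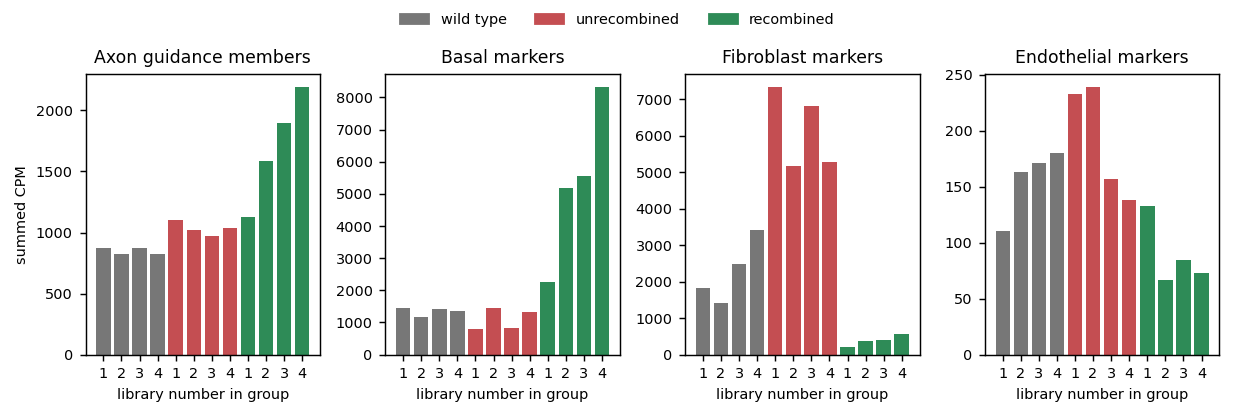
Summed CPM per library (bars; library number within its group on the x axis) of the 50 members, and of the basal, fibroblast and endothelial marker lists. Members summed to 824 to 877 CPM for wild type, 973 to 1102 for unrecombined and 1127 to 2189 for recombined cells, and recombined 4 was highest for the members and for the basal list.

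Secreted class 3 semaphorins rose in 2 of 6 tested cases against wild type (33.3%) and in 1 case against unrecombined cells (16.7%). The shares of all loci that were higher were 4.17% and 3.08%. Sema3c, a ligand of neuropilin and plexin complexes (mm9 chromosome 5, start 17080633), had 31, 20.7, 32.2 and 25.1 CPM in wild type libraries 1 to 4, 25.2, 42.3, 20.3 and 31.3 in unrecombined libraries 1 to 4 and 61.3, 112, 136 and 148 in recombined libraries 1 to 4. Every recombined library was above all 8 others, recombined 1 being the closest to them. The log2 fold change was 2.07 ± 0.289 (SE, adjusted p = 0.000897) against wild type and 1.94 ± 0.288 (SE, adjusted p = 0.00109) against unrecombined cells. Both calls held without any single library, and without recombined 3 and 4. Sema3b, another neuropilin ligand, often lost in tumors (mm9 chromosome 9, start 107500445), had 6.4, 1.55, 1.57 and 2.29 CPM in wild type libraries 1 to 4, 4.78, 6.18, 6.15 and 4.21 in unrecombined libraries 1 to 4 and 3.17, 22.1, 7.11 and 26.2 in recombined libraries 1 to 4. Recombined 1 and wild type 1 overlapped, and recombined 2 and 4 were the high libraries. Its difference from wild type was 2.30 ± 0.63 (SE, adjusted p = 0.0431) and from unrecombined cells 1.46 ± 0.611 (SE, adjusted p = 0.217). The call was lost without any of wild type 2, 3 and 4, unrecombined 1 to 4 and recombined 2 and 4 (adjusted p 0.0568 to 0.127). Without wild type 1 the change was 3.02. It was also lost with unweighted (adjusted p = 0.162) and weighted limma-voom (0.104), upper quartile scaling (0.0507), only the 2 groups (0.103), the series covariate (0.071) and without recombined 3 and 4 (0.191).

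The other secreted semaphorins did not pass. Sema3e, which can bind the plexin Plxnd1 without a neuropilin, had 6.66, 6.96, 6.78 and 10.6 CPM in recombined against 1.67, 0, 2.31 and 0.717 in wild type libraries. All 4 recombined libraries were above all wild type and unrecombined ones, yet the difference of 2.72 ± 0.83 (SE, adjusted p = 0.0671) from wild type missed the threshold. Without wild type 2, where it had no count, it passed (log2 2.31, adjusted p = 0.028). DESeq2 (adjusted p = 0.00359) and limma-voom (0.0282) called it too. Sema3a, the classical ligand of Nrp1, was low in recombined and wild type cells, with 0.149, 2.05, 0 and 0.701 CPM, against 0.545, 0.581, 1.88 and 1.65 in wild type and 9.74, 3.62, 4.74 and 4.96 in unrecombined libraries. The 4 unrecombined libraries lay above all 8 others, with a difference of 2.31 ± 0.929 (SE, adjusted p = 1.00) from wild type. Recombined cells differed from them by -2.97 ± 0.958 (SE, adjusted p = 0.0985). This difference passed without recombined 2 (adjusted p = 0.0279), with DESeq2 (0.00967) and with limma-voom (0.0258). Sema3d and Sema3f, with 12 ± 7.91 and 2.55 ± 1.41 CPM (SD, n = 4) in recombined libraries, differed from wild type by 0.89 and 0.27 on the log2 scale, both with overlapping groups.

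Among the 13 membrane-bound semaphorins 3 (23.1%) rose in recombined cells in both comparisons, namely Sema5a, Sema6d and Sema6a. The share of all loci that rose was 4.17% against wild type and 3.08% against unrecombined cells. Sema5a, a transmembrane semaphorin with thrombospondin repeats (mm9 chromosome 15, start 32170322), had 34.4, 48.8, 57 and 53 CPM in wild type libraries 1 to 4, 77.1, 68.4, 61.1 and 95.5 in unrecombined libraries 1 to 4 and 133, 269.6, 338 and 316 in recombined libraries 1 to 4. All recombined libraries were above all others, and all unrecombined libraries were above all wild type ones. Its change was 2.45 ± 0.272 (SE, adjusted p = 0.000201) against wild type, or 5.47-fold, and 1.81 ± 0.265 (SE, adjusted p = 0.00103) against unrecombined cells. The difference between unrecombined and wild type cells was 0.64 ± 0.259 (SE, adjusted p = 1.00). No single library changed the 2 calls. The entry also carries the names Snord123 and AK007719, so reads of those are in the count.

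Sema6d, a transmembrane ligand of class A plexins (mm9 chromosome 2, start 123915704), had 58.5, 32.2, 33.4 and 32.3 CPM in wild type libraries 1 to 4, 34.6, 38.7, 31.3 and 36.5 in unrecombined libraries 1 to 4 and 92.6, 114, 143 and 196 in recombined libraries 1 to 4. Recombined libraries did not overlap with the rest, and wild type 1 was the high wild type library. It rose by 1.80 ± 0.251 (SE, adjusted p = 0.000875) against wild type and by 1.95 ± 0.252 (SE, adjusted p = 0.000395) against unrecombined cells. Its relative Sema6a, also a ligand of class A plexins (mm9 chromosome 18, start 47404907), had 29.3, 19, 27.1 and 24.7 CPM in wild type libraries 1 to 4, 29.3, 30.6, 45.9 and 27.6 in unrecombined libraries 1 to 4 and 49.2, 64.9, 111 and 66.8 in recombined libraries 1 to 4. Recombined 3 stood highest, and recombined 1 was close to unrecombined 3. The rise was 1.54 ± 0.259 (SE, adjusted p = 0.00305) against wild type and 1.13 ± 0.256 (SE, adjusted p = 0.0189) against unrecombined cells. The second call was lost without unrecombined 1, 2 or 4 or recombined 3 (adjusted p 0.0531 to 0.068), and without recombined 3 and 4 together the change was 0.78 (adjusted p = 0.206).

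The remaining 10 membrane semaphorins did not pass. Their log2 differences from wild type ran from -2.66 (Sema4f) to 1.04 (Sema4a), and all 10 overlapped between these groups. Sema4d, the ligand of Plxnb1, had 40.5 ± 9.26 CPM (mean ± SD, n = 4) in wild type cells, 34.9 ± 4.73 among unrecombined and 29.5 ± 8.46 among recombined libraries, a difference of -0.46 ± 0.227 (SE, adjusted p = 0.277). Sema4b had 31.5 ± 6.23, 30.6 ± 6.71 and 43.1 ± 9.1 CPM in the same order (log2 0.45 ± 0.22 SE, adjusted p = 0.271). Sema7a, which is anchored in the membrane by a lipid and binds Plxnc1 and integrins, had 1.08, 2.53, 1.35 and 1.28 CPM in recombined against 3.1, 13.9, 3.71 and 2.47 in wild type libraries. Wild type 2 was the high library, and the difference was -1.89 ± 0.636 (SE, adjusted p = 0.0991), or -0.99 without that library (adjusted p = 0.377). With all libraries it passed with DESeq2 (adjusted p = 0.0275) and with the salivary covariate (0.0449). Against unrecombined cells Sema7a differed by -1.87 ± 0.635 (SE, adjusted p = 0.119), which passed with the replicate block (adjusted p = 0.030) and with DESeq2 (0.0348). Sema4a had 15.4 ± 7.34 CPM in recombined and 7.52 ± 1.15 in wild type libraries and passed without recombined 4 (adjusted p = 0.0312). Sema4f was below all unrecombined libraries in all recombined ones, at 0, 0.257, 0.0538 and 0.0412 against 0.833, 1.62, 0.97 and 1.05 CPM (log2 -3.60 ± 1.15 SE, adjusted p = 0.0967). The Sema4f difference passed with DESeq2 (adjusted p = 0.0214) and with limma-voom (0.0491). Sema5b, Sema6b, Sema6c and Sema4g had means under 2 CPM in every group.

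Upstream sequences of the 2 semaphorins with the highest recombined level per exon length are shown because Sema3c and Sema5a both rose in both comparisons. They are the 250 bases before the RefSeq start on GRCm38.p6, at chr5:17574566-17574815 on the plus strand and chr15:32244563-32244812 on the plus strand. Capitals mark the GC box GGGCGG on either strand.
Sema3c: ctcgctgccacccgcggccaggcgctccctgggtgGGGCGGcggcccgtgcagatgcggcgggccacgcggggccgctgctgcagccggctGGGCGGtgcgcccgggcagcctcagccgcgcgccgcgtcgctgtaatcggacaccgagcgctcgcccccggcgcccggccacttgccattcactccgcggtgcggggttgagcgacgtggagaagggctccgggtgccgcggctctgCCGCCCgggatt
Sema5a: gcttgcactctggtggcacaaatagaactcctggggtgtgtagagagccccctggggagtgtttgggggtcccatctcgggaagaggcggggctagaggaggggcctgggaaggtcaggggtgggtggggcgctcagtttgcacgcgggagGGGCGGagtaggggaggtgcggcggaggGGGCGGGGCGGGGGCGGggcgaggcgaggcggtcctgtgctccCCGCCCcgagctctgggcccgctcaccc
Sema3c had 3 and Sema5a 5 GC boxes. Promoters were listed for 41 of the 50 member symbols, 54 windows in all, and 36 of these (66.7%) held the GC box, as did 32.7% of all 32851 windows of this length. The Gli motif GACCACCCA, searched on both strands, was in 0 of the 54 windows and in 0.225% of all. This says only that these letters are not in these windows.

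Of 9 plexins, the semaphorin receptors, 1 was higher against wild type (11.1%) and 2 against unrecombined cells (22.2%). Of all loci 4.17% and 3.08% were higher in these comparisons. Plxna1, which pairs with neuropilins and also binds class 6 semaphorins (mm9 chromosome 6, start 89266307), had 22.3, 20.7, 23.5 and 25.7 CPM in wild type libraries 1 to 4, 23.7, 25.6, 37.2 and 30.7 in unrecombined libraries 1 to 4 and 34.2, 46, 72.9 and 84.6 in recombined libraries 1 to 4. All recombined libraries exceeded all wild type ones, while recombined 1 overlapped with unrecombined 3. It rose by 1.37 ± 0.264 (SE, adjusted p = 0.00727) against wild type. Against unrecombined cells it rose by 1.02 ± 0.261 (SE, adjusted p = 0.0358), a call lost without wild type 1, 3 or 4, unrecombined 1, 2 or 4 or recombined 3 or 4 (adjusted p 0.0503 to 0.121). It was lost too with limma-voom (0.070), its weights (0.0598) and only the 2 groups (0.0944). Without recombined 3 and 4 the changes were 0.79 (adjusted p = 0.122) against wild type and 0.46 (adjusted p = 0.527) against unrecombined cells.

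Plxnb1, the receptor of Sema4d (mm9 chromosome 9, start 108996357), had 69.1, 49.5, 41.6 and 37 CPM in wild type libraries 1 to 4, 42.4, 32.4, 48.6 and 42.9 in unrecombined libraries 1 to 4 and 68.1, 56.2, 106 and 104 in recombined libraries 1 to 4. Recombined libraries were above all unrecombined ones but overlapped with wild type 1. It rose by 1.01 ± 0.247 (SE, adjusted p = 0.0281) against unrecombined cells, and differed from wild type by 0.76 ± 0.246 (SE, adjusted p = 0.0849). The first call was lost without unrecombined 1, 2 or 4 or recombined 3 or 4 (adjusted p 0.0695 to 0.0935), and with library weights (adjusted p = 0.108). The second passed without wild type 1 (adjusted p = 0.0401) or recombined 2 (0.0459) and with DESeq2 (0.038). Plxnb2, a receptor of Sema4c and Sema4d, had 74.5, 75, 49.1 and 67.2 CPM in wild type libraries 1 to 4, 59.8, 64.4, 57.5 and 52.1 in unrecombined libraries 1 to 4 and 63.4, 51.2, 58.8 and 64.4 in recombined libraries 1 to 4. Its groups overlapped, with a difference of -0.16 ± 0.163 (SE, adjusted p = 0.636) from wild type.

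Plxna4, a receptor of Sema6a and of neuropilin complexes, had 16.5, 18, 45.5 and 18.6 CPM in recombined and 5.31, 9.52, 9.82 and 8.53 in wild type libraries. The groups did not overlap, recombined 3 was far the highest, and the difference of 1.57 ± 0.508 (SE, adjusted p = 0.0862) missed the threshold. It passed without unrecombined 2 (adjusted p = 0.024), with DESeq2 (0.0168) and with only the 2 groups (0.0432). Without unrecombined 2 it also passed against unrecombined cells (adjusted p = 0.0172). Plxna2 and Plxna3 differed from wild type by 0.20 and 0.42 on the log2 scale. Plxnc1 and Plxnd1, the latter a plexin of vessels, differed by -0.86 and -0.34, and Plxnb3 had at most 0.83 CPM in any library. None of these 5 passed in any of the comparisons.

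The 2 neuropilins moved apart. Nrp1, a co-receptor for class 3 semaphorins and for vascular endothelial growth factor (mm9 chromosome 8, start 130882972, in an entry shared with Mir1903 and AK050336), had 19.1, 19.6, 27.8 and 20.8 CPM in wild type libraries 1 to 4, 50.7, 61.6, 21 and 30.4 in unrecombined libraries 1 to 4 and 9.59, 4.11, 2.53 and 5.11 in recombined libraries 1 to 4. Every recombined library was below all 8 others. Unrecombined 1 and 2 were the highest libraries, and unrecombined 3 lay inside the wild type range. Its level fell by 2.02 ± 0.404 on the log2 scale against wild type (SE, adjusted p = 0.00882) and fell by 2.93 ± 0.417 against unrecombined cells (adjusted p = 0.000764). Both calls held without any single library. Without recombined 3 and 4 the change against wild type was -1.68 (adjusted p = 0.0969). Unrecombined and wild type cells differed by 0.91 ± 0.388 (SE, adjusted p = 1.00). The endothelial marker Kdr, a partner of Nrp1, had 2.57 ± 2.29 CPM in recombined, 10.5 ± 3.05 in wild type and 14.1 ± 7.68 in unrecombined libraries. Against wild type Kdr had the lowest log2 difference of the 10 tested endothelial markers (-2.01, median of the list -0.76). The fibroblast list had a median of -3.78 there. The part of either cell type in the Nrp1 difference was not tested.

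Nrp2, the neuropilin that prefers other class 3 semaphorins such as Sema3f (mm9 chromosome 1, start 62749890), had 20.7, 22.4, 34.3 and 28.6 CPM in wild type libraries 1 to 4, 50.1, 56.7, 36.9 and 44.8 in unrecombined libraries 1 to 4 and 48.6, 119, 125 and 295 in recombined libraries 1 to 4. All recombined libraries were above wild type, recombined 1 overlapped with unrecombined 1 and 2, and recombined 4 was far above the rest. It rose by 2.47 ± 0.41 (SE, adjusted p = 0.00296) against wild type, or 1.88 without recombined 4 (adjusted p = 0.00395). Without recombined 3 and 4 it was 1.67 (adjusted p = 0.0211). Against unrecombined cells it rose by 1.64 ± 0.398 (SE, adjusted p = 0.0272). That call was lost without any one of unrecombined 1 to 4 or recombined 3 or 4 (adjusted p 0.0525 to 0.0827), and the change was 1.05 without recombined 4. It was lost with limma-voom (0.0871), its weights (0.0787) and only the 2 groups (0.0684). All unrecombined libraries were above all wild type ones, a difference of 0.83 ± 0.392 (SE, adjusted p = 1.00).

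Within a library the ratio of the 2 counts needs no scaling. There were 1.08, 1.14, 1.23 and 1.38 Nrp2 counts per Nrp1 count in wild type libraries 1 to 4. In unrecombined libraries the ratio was 0.986, 0.92, 1.75 and 1.47, and in recombined libraries 5.07, 29.1, 49.3 and 57.8. Recombined 1 was the nearest to the other groups and still above all 8 of them. The 250 bases before each start are shown because these relatives moved in opposite directions, at chr8:128358823-128359072 on the plus strand and chr1:62703067-62703316 on the plus strand on GRCm38.p6 (RefSeq), with GC boxes in capitals.
Nrp1: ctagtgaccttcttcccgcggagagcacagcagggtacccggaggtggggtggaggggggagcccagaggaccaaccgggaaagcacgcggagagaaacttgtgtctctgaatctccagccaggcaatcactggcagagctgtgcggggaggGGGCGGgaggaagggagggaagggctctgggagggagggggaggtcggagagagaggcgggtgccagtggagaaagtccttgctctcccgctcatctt
Nrp2: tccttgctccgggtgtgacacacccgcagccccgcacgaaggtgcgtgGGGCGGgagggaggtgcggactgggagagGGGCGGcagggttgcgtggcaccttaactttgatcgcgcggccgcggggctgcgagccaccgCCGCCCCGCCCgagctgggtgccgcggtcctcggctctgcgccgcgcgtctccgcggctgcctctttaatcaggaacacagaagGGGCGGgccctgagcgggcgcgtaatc
Nrp1 had 1 GC box and Nrp2 5, with 11 and 32 CpG dinucleotides and a GC content of 64.4% and 72.4%. These are descriptions of the windows, not sites of any factor.

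**Figure D3:**
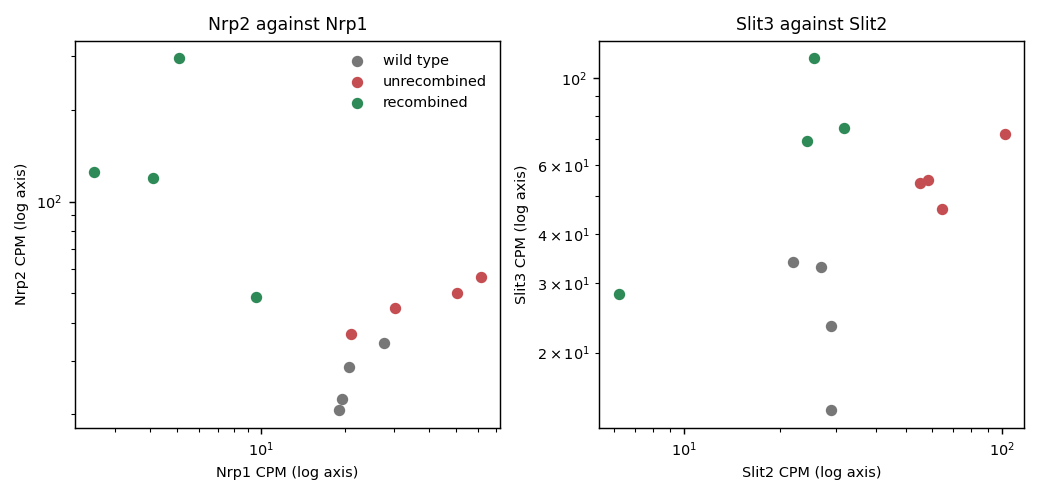
Levels of 2 pairs of related genes per library, in CPM on log axes: Nrp2 against Nrp1 (left) and Slit3 against Slit2 (right), colored by group. In the left panel the 4 recombined libraries lie to the left of all others. In the right panel the unrecombined libraries lie at the highest Slit2 levels, from 55.2 to 102 CPM.

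Slits, the secreted Robo ligands, also differed from each other. Slit2 (mm9 chromosome 5, start 48374393) had 28.9, 28.9, 26.8 and 22 CPM in wild type libraries 1 to 4, 102, 55.2, 64.8 and 58.4 in unrecombined libraries 1 to 4 and 6.21, 31.7, 24.4 and 25.6 in recombined libraries 1 to 4. Unrecombined libraries were above all 8 others, recombined 1 was the lowest, and recombined and wild type libraries overlapped. Against unrecombined cells Slit2 fell by 1.68 ± 0.377 on the log2 scale (SE, adjusted p = 0.0179). That call was lost without unrecombined 1 or recombined 3 (adjusted p 0.0528 to 0.0664), with only the 2 groups (0.0584) and without recombined 3 and 4 (0.144). The difference from wild type was -0.28 ± 0.368 (SE, adjusted p = 0.733), and 0.03 without recombined 1. Unrecombined and wild type cells differed by 1.40 ± 0.374 (SE, adjusted p = 0.514). DESeq2 (adjusted p = 0.0477) and limma-voom with library weights (0.0474) called this difference.

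Slit3 (mm9 chromosome 11, start 34934957) had 23.4, 14.3, 33 and 34.1 CPM in wild type libraries 1 to 4, 72.1, 54, 46.5 and 54.9 in unrecombined libraries 1 to 4 and 28.2, 74.4, 68.9 and 112 in recombined libraries 1 to 4. Recombined 1 lay among the wild type libraries and the other 3 recombined libraries above them, while unrecombined libraries were all above wild type. It rose by 1.44 ± 0.357 (SE, adjusted p = 0.0273) in recombined against wild type cells. The call was lost without wild type 1 or 2 or recombined 2, 3 or 4 (adjusted p 0.0539 to 0.082), with limma-voom (0.0675), its weights (0.113), only the 2 groups (0.0708), the series covariate (0.0513) and without recombined 3 and 4 (0.30). Unrecombined cells differed from wild type by 1.12 ± 0.355 (SE, adjusted p = 0.786), and recombined from unrecombined cells by 0.32 ± 0.35 (SE, adjusted p = 0.70). Slit3 counts per Slit2 count were 0.808, 0.495, 1.23 and 1.55 in wild type cells, 0.705, 0.978, 0.718 and 0.94 among unrecombined and 4.54, 2.35, 2.83 and 4.39 among recombined libraries. The recombined ratios were above all others. Fibroblast markers, with the summed levels given above, were highest in the unrecombined libraries, as Slit2 was. In recombined against wild type cells 9 of 10 fibroblast markers fell (median log2 -3.78), while Slit2 differed by -0.28 and Slit3 by 1.44. The part of fibroblasts was not tested.

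The 250 bases before the start of each Slit are shown because each Slit passed in a different comparison, at chr5:47982905-47983154 on the plus strand and chr11:35121206-35121455 on the plus strand on GRCm38.p6 (RefSeq), with GC boxes in capitals.
Slit2: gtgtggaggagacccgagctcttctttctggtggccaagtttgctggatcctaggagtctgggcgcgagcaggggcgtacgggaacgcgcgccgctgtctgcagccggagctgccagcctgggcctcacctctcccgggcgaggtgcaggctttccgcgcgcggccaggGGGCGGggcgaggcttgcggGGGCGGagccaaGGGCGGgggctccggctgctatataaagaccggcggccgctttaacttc
Slit3: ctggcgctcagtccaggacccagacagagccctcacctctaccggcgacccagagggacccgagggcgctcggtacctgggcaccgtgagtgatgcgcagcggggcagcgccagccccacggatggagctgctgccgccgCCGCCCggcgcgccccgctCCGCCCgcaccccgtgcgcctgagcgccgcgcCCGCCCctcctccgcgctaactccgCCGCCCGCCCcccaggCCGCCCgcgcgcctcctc
Slit2 had 3 and Slit3 6 GC boxes, with 25 and 35 CpG dinucleotides.

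None of the 3 tested Robo entries passed. The table names Robo1 and Robo2, neighbors on chromosome 16, jointly in 2 entries, so the names alone do not assign an entry to 1 receptor. On GRCm38.p6, another build, the window before the Robo1 start is 72662899 to 72663148 (plus strand), near the start of the first entry. The second entry also carries the name mKIAA1568 and starts below the lowest listed Robo2 window (74411826, minus strand). Entries are described here by position. The first, which starts at 72663393 on mm9, had 51, 60.2, 50.5 and 45.4 CPM in wild type libraries 1 to 4, 65.2, 48.8, 54.9 and 64.3 in unrecombined libraries 1 to 4 and 41.5, 61.7, 56.3 and 113 in recombined libraries 1 to 4. Recombined 4 was high and the groups overlapped, with a difference of 0.40 ± 0.252 (SE, adjusted p = 0.417) from wild type, or -0.0093 without recombined 3 and 4. The second, which starts at 73892550, had 4.87, 24.6, 37.3 and 18 CPM in recombined and 8.79, 14.6, 6.11 and 7.56 in wild type libraries (log2 1.19 ± 0.496 SE, adjusted p = 0.188). It passed without its lowest recombined library, recombined 1 (adjusted p = 0.0265). Robo4, the Robo of endothelial cells (mm9 chromosome 9, start 37209630), had 1.91, 0.403, 1.02 and 0.66 CPM in recombined, 1.5, 3.64, 2.53 and 1.65 in wild type and 3.48, 2.94, 1.9 and 2.0 in unrecombined libraries. Recombined 2 to 4 were below all 8 others and recombined 1 inside them, with differences of -1.21 ± 0.573 (SE, adjusted p = 0.251) from wild type and -1.36 ± 0.574 (SE, adjusted p = 0.221) from unrecombined cells.

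Of 5 tested netrins 1 (20%), a netrin-G, passed and was higher in both comparisons. The share of all loci that were higher was 4.17% against wild type and 3.08% against unrecombined cells. Ntn1, the founding secreted netrin (mm9 chromosome 11, start 68022865), had 30.7, 44.5, 50.9 and 43.8 CPM in wild type libraries 1 to 4, 31.1, 33.8, 60.4 and 44.2 in unrecombined libraries 1 to 4 and 55.3, 31.1, 29.5 and 35.2 in recombined libraries 1 to 4. The 3 groups overlapped, and the difference from wild type was -0.17 ± 0.26 (SE, adjusted p = 0.777). Ntn4, a netrin of basement membranes, had 10.0 ± 3.34, 7.41 ± 2.25 and 10.2 ± 2.24 CPM (SD, n = 4) in the same order of groups, and the entry of Ntn3, shared with Tbc1d24 and other names, 8.79 ± 1.17, 9.89 ± 3.09 and 9.21 ± 2.84 CPM. Neither passed. Ntng2, a netrin-G protein that is anchored in the membrane by a lipid (mm9 chromosome 2, start 29050340, in an entry shared with mKIAA1857), had 1.16, 0.348, 1.44 and 1.04 CPM in wild type libraries 1 to 4, 0.978, 1.92, 0.934 and 0.781 in unrecombined libraries 1 to 4 and 3.31, 6.3, 15.9 and 4.25 in recombined libraries 1 to 4. Recombined libraries were above all others, and recombined 3 was the highest. It rose by 2.89 ± 0.618 (SE, adjusted p = 0.0127) against wild type and by 2.68 ± 0.612 (SE, adjusted p = 0.0192) against unrecombined cells. Without recombined 3 these were 2.22 (adjusted p = 0.0438) and 2.02 (0.0669). The second call was also lost without unrecombined 1, 3 or 4 (adjusted p 0.0624 to 0.0699). Without recombined 3 and 4 neither passed (adjusted p = 0.0969 and 0.141). Ntng1 differed from wild type by 0.66 ± 0.396 (SE, adjusted p = 0.385), with overlapping groups.

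Both members of the Dcc family rose against wild type. Dcc, the attractive netrin receptor (mm9 chromosome 18, start 71413285), had no count in any of the 4 wild type libraries. It had 0, 4, 2 and 1 counts in unrecombined libraries 1 to 4 and 46, 35, 187 and 47 in recombined libraries 1 to 4, or 1.37, 1.28, 10.1 and 1.94 CPM. Every recombined library was above all others, and recombined 3 held 187 of the 315 recombined counts. Taking 3 counts over the 4 wild type libraries as the floor, the pooled recombined level was at least 107-fold higher, and at least 53.2-fold higher without recombined 3. The adjusted p was 0.00472 against wild type and 0.0167 against unrecombined cells. The second call was lost without unrecombined 3 or 4 or recombined 3 (adjusted p 0.0551 to 0.0601). Without recombined 3 and 4 neither passed (adjusted p = 0.0514 and 0.199). The fitted sizes depend on the prior count and are not read here.

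Neo1, the neogenin receptor of netrins and repulsive guidance molecules (mm9 chromosome 9, start 58722486), had 156, 156, 135 and 121 CPM in wild type libraries 1 to 4, 182, 132, 165 and 186 in unrecombined libraries 1 to 4 and 174, 223, 265 and 268 in recombined libraries 1 to 4. Recombined libraries were above wild type ones and overlapped with unrecombined ones. It rose by 0.71 ± 0.169 (SE, adjusted p = 0.0221) against wild type, or 1.64-fold, and differed from unrecombined cells by 0.48 ± 0.169 (SE, adjusted p = 0.129). The call was lost without wild type 3 or 4 or recombined 3 or 4 (adjusted p 0.0607 to 0.0835), and without recombined 3 and 4 the change was 0.48 (adjusted p = 0.298). Without recombined 1 the difference from unrecombined cells passed (log2 0.60, adjusted p = 0.0418).

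Unc5 receptors, which turn the netrin signal into repulsion, did not pass. Unc5b had 2.93, 4.76, 5.37 and 2.51 CPM in wild type libraries 1 to 4, 5.0, 5.88, 8.84 and 3.19 in unrecombined libraries 1 to 4 and 4.03, 5.64, 13.1 and 5.98 in recombined libraries 1 to 4. The groups overlapped, and the difference from wild type was 0.88 ± 0.448 (SE, adjusted p = 0.288). Unc5c had 5.55, 15.8, 3.55 and 12 CPM in recombined and 2.93, 1.66, 2.97 and 1.4 in wild type libraries, without overlap, and missed the threshold (log2 2.04 ± 0.686 SE, adjusted p = 0.0989). It passed without unrecombined 3 (adjusted p = 0.0299) and with DESeq2 (0.0203). Unc5a is counted together with Hk3, a hexokinase of blood cells, and had 0, 4, 0 and 1 counts in recombined libraries against 30, 57, 9 and 8 in unrecombined ones (log2 -4.19 ± 1.18 SE, adjusted p = 0.0571). It passed without recombined 2 (adjusted p = 0.0344) and with DESeq2 (0.00849). The 5 members with too few counts to be tested were Sema3g (0 to 51 counts per library), Robo3 (0 to 32), Slit1 (0 to 24), Ntn5, counted with Sec1 (0 to 7), and Unc5d (0 to 7).

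**Figure D4:**
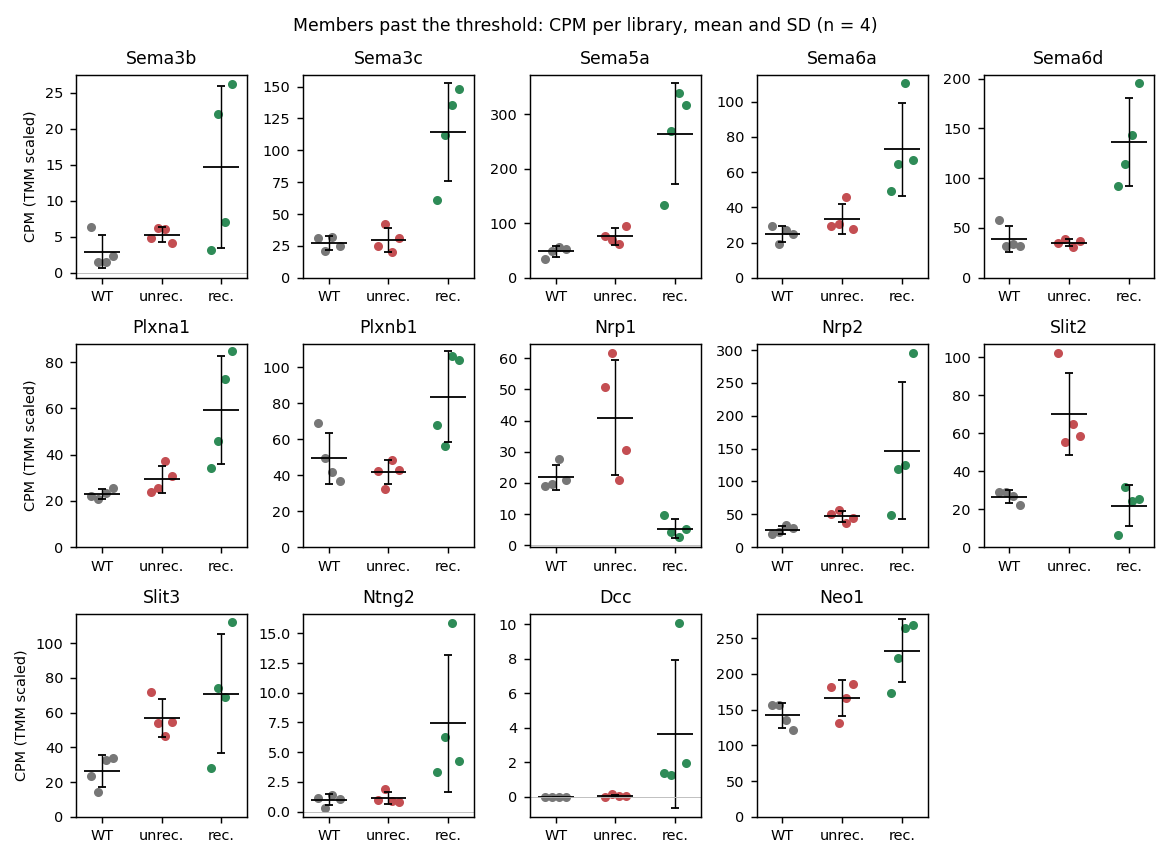
CPM per library (points), mean (line) and SD (bars, n = 4) of the 14 members that passed in any comparison, for wild type (WT), unrecombined (unrec.) and recombined (rec.) libraries. Sema3c, Sema5a, Sema6a, Sema6d, Ntng2 and Dcc are above all others in every recombined library, Nrp1 is below all others, and Slit2 is highest in the unrecombined libraries.

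Levels of different genes were set side by side per kilobase of annotated exon, for 41 tested members whose entry joins no other protein-coding gene. Neo1 was the highest in all groups, with 19.2 ± 2.32 CPM per kb (SD, n = 4) for wild type, 22.5 ± 3.35 for unrecombined and 31.5 ± 5.99 for recombined cells. In recombined cells Sema5a (24.4 ± 8.53), Sema3c (20.8 ± 7.0), Sema6d (19 ± 6.21) and Nrp2 (14.2 ± 10.1) followed. Neighbors among these 4 differ by less than their SD. In wild type cells the members after Neo1 were Plxnb2 (10.1 ± 1.84), Sema4d (8.54 ± 1.95), Sema4b (7.83 ± 1.55), Ntn1 (6.97 ± 1.39) and Nrp1 (6.07 ± 1.12), again with neighbors closer than an SD. In unrecombined cells Nrp1 ranked 2 with 11.4 ± 5.15 CPM per kb and Slit3 ranked 3 with 10.9 ± 2.07. From wild type to recombined libraries Sema5a went from rank 13 to 2, Nrp2 from 17 to 5, and Nrp1 from 6 to 25.

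**Figure D5:**
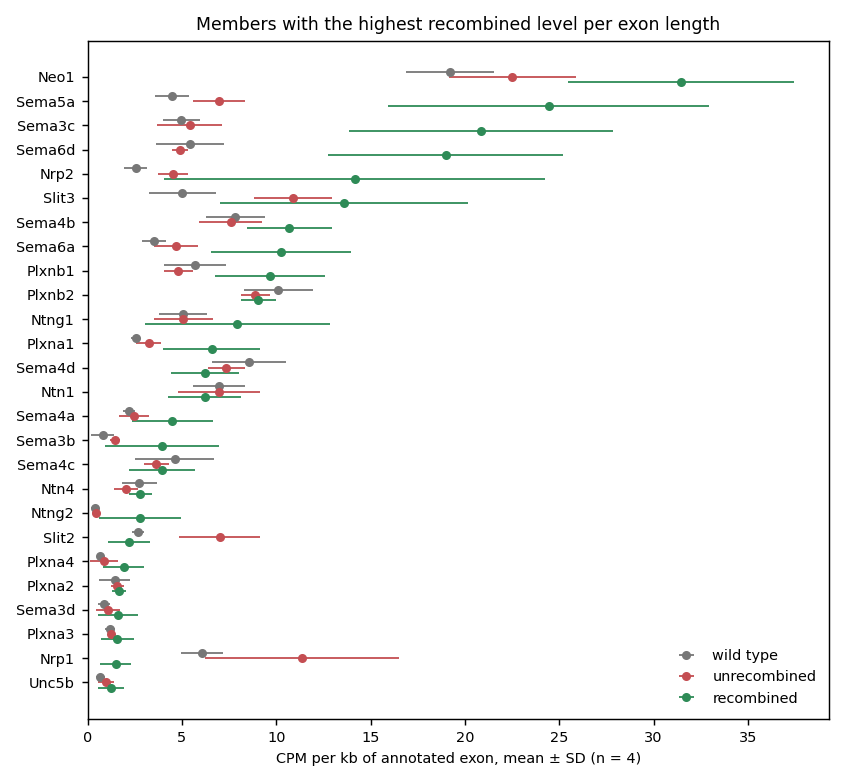
Mean CPM per kilobase of annotated exon with SD (x axis, n = 4) of the 26 members with the highest recombined value, by group. Neo1 leads in every group, Sema5a, Sema3c, Sema6d and Nrp2 follow in recombined cells, and Nrp1 has its highest value in unrecombined cells.

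Other genes of the guidance pathways were counted from a list of partners. Of 21 tested ligand and receptor partners 4 rose (19%) and 0 fell against wild type, with a median log2 difference of 0.59. Of 45 intracellular effectors 6 rose (13.3%) and 1 fell (2.22%), with a median of 0.24. Of all loci 4.17% were higher and 2.38% lower, so the share of effectors that fell was near that of all loci. The L1 family adhesion molecule Nrcam, a neuropilin partner, had 1.13 ± 0.675 CPM (mean ± SD, n = 4) in wild type cells and 41.8 ± 34 after recombination, a rise of 5.21 ± 0.723 (SE, adjusted p = 0.000875), or 4.51 without recombined 4. Its relative Chl1 had 8.24 ± 1.79 and 68.2 ± 28.3 CPM (log2 3.05 ± 0.362 SE, adjusted p = 0.000287). Flrt3, a ligand of Unc5 receptors and a Robo partner, rose by 1.42 ± 0.228 (SE, adjusted p = 0.00234). Among effectors, Srgap1, a GTPase-activating protein that acts below Robo, rose by 2.53 ± 0.492 (SE, adjusted p = 0.00765), and Trio, an exchange factor that acts below Dcc, by 0.66 ± 0.147 (SE, adjusted p = 0.0157). The adaptor Nck2 fell, at -0.81 ± 0.185 (SE, adjusted p = 0.0186). The Trio and Nck2 calls were lost without wild type 4 (adjusted p = 0.0588 and 0.0721), and that of Nck2 without recombined 4 (0.051). Against unrecombined cells 4 ligand and receptor partners rose (19%) and 1, Kdr, fell (4.76%), and 3 effectors rose (6.67%). Of all loci 3.08% were higher and 2.14% lower there. Between unrecombined and wild type cells edgeR called 0 of these 66 partners, DESeq2 1 and limma-voom 0. Over all loci they called 0, 76 and 25. Of the 66 partners 3 had an unadjusted p under 0.05 in edgeR, as did 541 of all 14039 loci.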

How the data were processed

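RNA sequencing counts of 12 libraries were taken from the table that the authors deposited. Per the submitters' processing notes, reads were aligned with STAR to mm9 and counted with HTSeq 0.3.1; options, strand setting and annotation are not given in the sources used here. The deposited values are raw counts per entry. Of 36635 entries, 20114 name 1 locus and were used; 16521 name several loci, held 0.0617% to 0.101% of the counts and were left out.

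Groups were taken from the labels. Counts were tested with edgeR 4.0.16 (R 4.3.3; TMM, filterByExpr, robust quasi-likelihood F test, one mean per group over all 12 libraries), two-sided, with Benjamini-Hochberg adjustment over 14039 loci and a threshold of 0.05. CPM values are counts scaled to TMM library sizes. SE is the size of a log2 fold change divided by the square root of its F statistic in that fit. It therefore restates the test and is not a separate measure of spread. The script was tested on simulated data. The floor of 3 counts used for genes with no count covers counting error only. Members, marker lists and partner lists were chosen with earlier results of these data known. Every member that passed in any comparison is named with its values, as is the tested member of each role with the highest mean CPM; for partners, the 6 with the smallest p were named. Levels per kilobase use exon lengths of GENCODE M21 (GRCm38), not the build of the counts. Promoters come from RefSeq (GRCm38.p6).

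Deviations from the group means of same-numbered recombined and unrecombined libraries correlated at 0.239, 0.399, 0.244 and 0.298 over loci. These numbers were taken as pairs in the replicate block only, and the main fit is unpaired. In both groups numbers 1 and 2 belong to library number series 23 and numbers 3 and 4 to series 24. The labels do not say what a number shares. Alternatives were DESeq2 1.42.0, limma 3.58.1 voom, other scalings and filters, covariates, the replicate block and left-out libraries.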

Additional observations from a re-analysis of the deposited data

Results flagged for a closer look

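Of 84 groups of 4 libraries examined in 28 members, 9 had 1 library far from the other 3 by the range test of Dixon. Chance gives about 1 in 20 groups for normally distributed values. The test used CPM on a linear scale and members partly chosen for passing, so the 9 cannot be set against that rate. The wild type group of Dcc, with no counts, could not be flagged. In all 9 the far library was the highest.

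In wild type, Sema6d had 58.5 CPM in library 1 (nearest library 33.4), Sema3b 6.40 in library 1 (2.29), Sema7a 13.9 in library 2 (3.71) and Sema4f 1.70 in library 3 (0.358). In unrecombined cells Plxna4 had 25.2 CPM in library 2 (7.22) and Sema6a 45.9 in library 3 (30.6). In recombined cells Dcc had 10.1 CPM in library 3 (1.94), Plxna4 45.5 in library 3 (18.6) and Sema3e 10.6 in library 4 (6.96). Libraries with a high value of Sema3b in wild type and of Plxna4 in unrecombined cells are also those whose removal raised the difference or brought it past the threshold. The cause of these values was not tested.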

How the results depend on the processing

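Under 28 alternatives none of the 23 member calls changed sign, and none held in every one of them. Of 1566 values of single genes under an alternative, 1379 kept direction and side of the threshold, 147 lost a call, 31 gained one and 9 turned. Members higher against wild type were 11, but 15 with DESeq2, 5 without recombined 3 and 4, 1 within series 23 and 0 within series 24, and 9 to 12 leaving out 1 library. Members lower there were 1, but 2 with DESeq2, with the salivary covariate and with the replicate block, 0 in each of these 3 smaller sets, and 1 leaving out any library. Members higher against unrecombined cells were 9, but 3 without recombined 3 and 4, 0 within series 23, 3 within series 24, and 3 to 10 leaving out 1 library (4 without unrecombined 1, 3 without unrecombined 4 or recombined 3). Members lower there were 2, but 6 with DESeq2, 4 with limma-voom, 1 with only the 2 groups, 1 within series 23, 0 within series 24, 1 without recombined 3 and 4, and 1 to 4 leaving out 1 library (1 without unrecombined 1 or recombined 3, 4 without recombined 2). Members higher in unrecombined against wild type cells were 0, but 1 with DESeq2 and with weighted limma-voom. Calls over all loci moved as well. Against wild type they were 920, but 1614 with DESeq2, 248 without recombined 3 and 4 and 75 within series 23. Against unrecombined cells they were 733, but 1349, 282 and 106 in the same order, and 716 with limma-voom. Leaving out unrecombined 1, unrecombined 4 or recombined 3 gave 449, 519 and 567 there. Fewer libraries were fitted in the smaller sets, and otherwise the cause was not tested.

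With the replicate block members higher were 10 against wild type, 9 against unrecombined cells (3 lower) and 0 between the other groups. Over all loci that fit called 1194, 980 and 1 in the same order. Sema3b against wild type had an adjusted p of 0.0822 in that fit and Sema7a 0.0349, and it changed no other member call given here against wild type. Same-numbered recombined and wild type libraries correlated at -0.0314 to 0.185 and unrecombined and wild type ones at 0.00248 to 0.312. Not every library correlated best with its own number, and the numbers were not taken as pairs for those groups. The highest value, 0.312, still lies within the range of recombined and unrecombined libraries, 0.239 to 0.399.

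Directions turned only in results that did not pass in the main fit. Slit2 against wild type was -0.28 in the main fit. It was 0.030 without recombined 1 (-0.51 to 0.030 leaving out 1 library) and 0.20 within series 24. Slit3 against unrecombined cells, 0.32 in the main fit, was -0.060 with weighted limma-voom, -0.28 within series 23 and -0.14 without recombined 3 and 4. The first Robo1 and Robo2 entry against wild type was -0.057 and -0.0093, and Ntn1 0.038 and 0.015, in these last 2 sets. The 7 libraries low in salivary transcripts and series 24 were chosen after seeing the data. In the comparison of all loci under other scalings the median moved by less than 0.1.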
